A study of Sorghum bicolor with 15 samples.

Results

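The genes described here are the 150 genes, of 34129 in the count table, whose transcripts were most clearly more abundant in roots of the sorghum variety Shanqui Red (SQR) than in roots of the variety SRN39 at both ages sampled. They were chosen by their measured values. The level of each gene was taken as log2(CPM + 1), where CPM is the count per 1000000 counts of the library, and the gap of a gene was the lowest level over the 7 SQR libraries minus the highest over the 8 SRN39 libraries. The 150 genes have the largest gaps, after 418 gene IDs around LGS1 on chromosome 5 were left out, 13 of which would otherwise have been among them. A positive gap means that no SQR library overlapped an SRN39 library, so the genotype difference of these genes is a description of the choice and is not tested.

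The parasitic weed Striga attacks SQR, whereas SRN39 resists it, so that each trait is represented here by a single variety. Whole root systems came from plants kept in a greenhouse without the parasite, in plugs of sterilised soil moved into sand. All were watered with a modified Hoagland nutrient solution, with phosphate at a level that the study elsewhere calls low. Roots of SQR at 35 d (3 libraries), SQR at 28 d (4), SRN39 at 35 d (4) and SRN39 at 28 d (4) were profiled by 3′ mRNA-Seq, a method that reads only the end of each transcript next to its poly(A) tail. SRN39 is described by the study as lacking LGS1, the gene that determines which strigolactone the root exudes, and SQR as carrying it. The study states that the replicates are biological. Genes that mark root or leaf were not found in the annotation used here, so the tissue was not checked against them.

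Library totals ran between 6369710 and 17304929 counts. LGS1 (Sobic.005G213600), which is not among the 150 genes, checks the genotype labels but not the age labels. Each SQR library held between 233 and 1012 counts of LGS1 and each SRN39 library between 5 and 24. The level of LGS1 in SRN39 averaged 3.07% of that in SQR. The filter of more than 1 CPM in at least 3 libraries was passed by 18473 genes, and all 150 genes were among them. They could pass through SQR alone: 64 of them passed in the SRN39 libraries by themselves and 86 did not.

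Varieties of a crop differ from each other in gene content and in the sequence of genes they share, as well as in how strongly a shared gene is transcribed. All reads were aligned to the genome of another variety, BTx623, so for any gene here a lower transcript level in SRN39, a copy missing from SRN39 and an SRN39 copy too different to be aligned cannot be told apart. In whole roots, fewer cells of a type and less RNA per cell cannot be told apart either.

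The 150 genes were low in SRN39, and each had at least 1 count summed over the 8 SRN39 libraries. LGS1, which the study describes as missing from SRN39, also gave counts there, so a few counts are not read as transcription. Their gaps ran between 0.97 and 4.28 on the log2 scale, with a median of 1.62. Mean levels in SQR were between 1.82 and 438 CPM (median 10.1), against means in SRN39 between 0.00964 and 69 CPM (median 0.54). As a share of its SQR level, the SRN39 level of a gene had a median of 3.51%, with quartiles at 2.11% and 9.7%, and the highest was 34.6%.

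**Figure D1:**
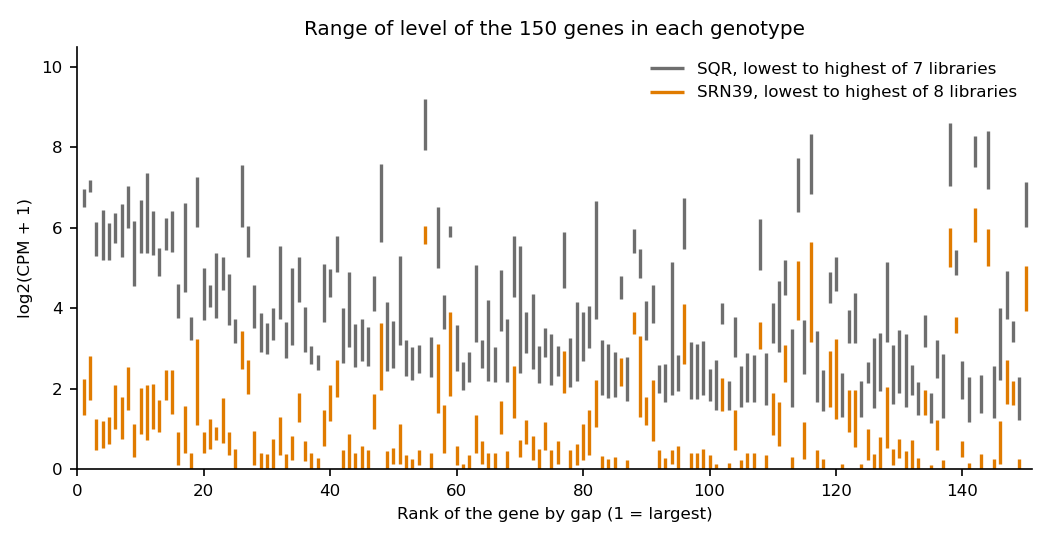
Range of the level, log2(CPM + 1), of each of the 150 genes over the 7 SQR libraries (gray) and the 8 SRN39 libraries (orange), in order of the gap between the bars. The gap is 4.28 at rank 1 and 0.97 at rank 150, and it falls more steeply over the first ranks than over the later ones.

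At the edge of the list the values changed gradually. The last genes inside had gaps of 0.974 and 0.970, and the first genes left outside had gaps of 0.969 and 0.965. The gene at rank 150 lay between 64 and 139.7 CPM in SQR and between 14.4 and 32.2 CPM in SRN39, and the gene just outside lay between 15.3 and 33 CPM in SQR and between 3.43 and 7.33 CPM in SRN39. Over the table, 806 genes had a positive gap with SQR higher and 874 with SRN39 higher. Among genes tested these were 735 (3.98%) and 796 (4.31%). The 150th largest gap was 0.97 with SQR higher and 1.3 with SRN39 higher, so the list reaches smaller gaps than its counterpart in the other direction.

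No gene of the list had 0 counts over all SRN39 libraries. Summed over these 8 libraries, 62 genes had between 1 and 24 counts, that is at most 3 counts per library on average, and 88 had more. A count of 0 in at least 1 SRN39 library was found for 58 genes and in an SQR library for none, where the lowest count was 8. The smallest SRN39 share belonged to a gene with 1 count over the SRN39 libraries and 161 over the SQR libraries. Its pooled level in SRN39 was 0.543% of that in SQR (95% exact interval 0.0137 to 3.07%). The interval covers counting error only, and not the choice of this gene as the smallest share of a list chosen on the same difference.

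The share was lower in genes of low SQR level. Genes under 10 CPM in SQR (75 genes) had a median SRN39 share of 2.55%, those of 10 to 100 CPM (65 genes) of 6.13% and those over 100 CPM (10 genes) of 12.3%. By construction the rule demands a larger ratio of a gene with a low level, because 1 is added to the CPM. In all, 33 genes kept more than 10% of their SQR level in SRN39 and 8 kept more than 20%. At or below the 3.07% of LGS1 lay 71 genes, a limit that was chosen after the values were seen. The reads of LGS1 in SRN39 are given beside these shares as a measured fact, and their part in the low counts of the 150 genes was not tested. For the 150 genes with the largest gap in the other direction, the level in SQR had a median of 2.19% of the SRN39 level and a lowest value of 0.609%.

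**Figure D2:**
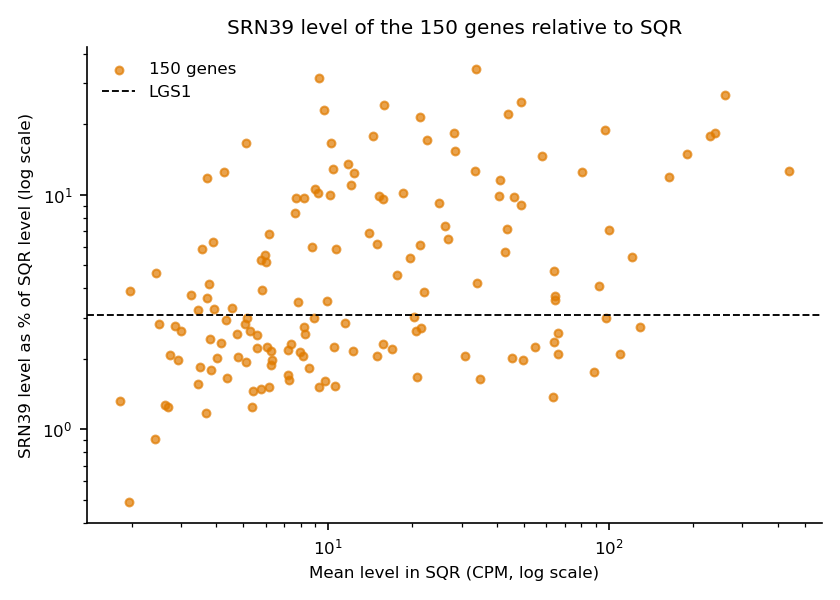
Mean SRN39 level of each of the 150 genes as a percentage of its mean SQR level, against the mean SQR level in CPM, both on log scales. The dashed line is LGS1 at 3.07%, and 71 of the 150 genes lie at or below it.

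Summed over the 150 genes, the libraries held 4513, 4751 and 4664 CPM in SQR at 35 d and 4865, 4597, 4504 and 4704 CPM in SQR at 28 d. In SRN39 the sums were 512, 472, 469.9 and 549 CPM at 35 d and 401, 403, 580.4 and 430.5 CPM at 28 d. The SQR libraries thus lay close together, and 1 SRN39 library, replicate 3 at 28 d, lay above all the others of its genotype. This library held the highest SRN39 value for 46 of the 150 genes, where the other SRN39 libraries held it for 6 to 28. Its median level over the 150 genes was 5.16% of the SQR mean, against 2.85 to 4.31% in the other SRN39 libraries. Its LGS1 level, 3.79% of the SQR mean, lay within the range of the other SRN39 libraries (0.987 to 4.67%). Its part in the gaps was measured by leaving it out: 141 of the 150 genes were then chosen again.

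Names were found for few of the genes. The part of a study table that could be read pairs 413 genes with descriptions. It holds 15 of the 150 genes, all among the 25 that lie on chromosome 1, and gives a role or domain for 12. This part covers only chromosome 1 and the start of chromosome 2, so the place of the 15 genes follows from what could be read. The table lists genes that the study had called different between the varieties, so these 12 are a selected sample, and the other 135 genes have no description here. Descriptions come from the best match in Arabidopsis or rice. The 12 genes are given by role below, with each library's CPM, except for Sobic.001G484000, for which the range in each genotype is given.

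Both the gene with the largest gap and a helicase gene belong to the machinery that reads or processes messenger RNA. Sobic.001G021300, whose Arabidopsis match is LOS1, is annotated as an elongation factor, a protein that moves the ribosome along the messenger. It had 100.4, 121 and 112 CPM in SQR at 35 d and 123, 111, 90.8 and 108 CPM in SQR at 28 d. In SRN39 it had 1.77, 2.4, 2.08 and 2.42 CPM at 35 d and 2.73, 1.68, 3.72 and 1.55 CPM at 28 d. It stood in SRN39 at 2.09% of SQR with a gap of 4.28, and the SQR libraries were nearly even. Sobic.001G028200 matches the large helicase of the U5 small nuclear ribonucleoprotein, which unwinds RNA pairs in the spliceosome. Its SQR libraries had 7.67, 15.3 and 11.1 CPM at 35 d and 10.1, 6.49, 10.2 and 8.79 CPM at 28 d. The SRN39 libraries had 0.312, 0.267, 0.154 and 0.403 CPM at 35 d and 0.182, 0.617, 0.391 and 0.49 CPM at 28 d, which is 2 to 7 counts each. For this gene SRN39 stood at 3.54% of SQR.

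Protease and protease inhibitor genes were present on the list. Sobic.001G475200 carries a trypsin-like peptidase domain and no further description. It was the most even of the 12 genes in SQR, with 118, 145 and 134 CPM at 35 d and 119, 134, 135 and 119.9 CPM at 28 d. SRN39 libraries had 5.2, 2.76, 2.31 and 3.46 CPM at 35 d and 2.27, 3.35, 6.06 and 2.94 CPM at 28 d. The gap of 4.07 was second on the list, and SRN39 stood at 2.74% of SQR. Sobic.001G100900 has the same domain and is annotated as a Deg protease homologue, a serine protease of a family that removes damaged proteins. SQR libraries had 165, 134 and 83 CPM at 35 d and 47.2, 85.3, 67 and 40.2 CPM at 28 d. SRN39 libraries had 1.46, 1.96, 0.771 and 2.33 CPM at 35 d and 1.27, 0.794, 3.23 and 0.653 CPM at 28 d. The age difference in SQR, a log2 fold change of 0.86 (SE 0.32), did not pass edgeR's test (adjusted p = 0.13), and the libraries of the 2 ages overlapped. Sobic.001G100700 is annotated as a proteinase inhibitor II family protein, a kind of inhibitor known in other plants from wounded leaves. It had 2.22, 7.46 and 4.59 CPM in SQR at 35 d and 5.92, 2.25, 2.08 and 2.83 CPM in SQR at 28 d. SRN39 libraries had 0.416, 0.356, 0.231 and 0.242 CPM at 35 d and 0.0909, 0.265, 0.293 and 0.0816 CPM at 28 d, so each held between 1 and 4 counts.

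Cell wall genes were represented by a structural protein and a wall-remodelling enzyme. Sobic.001G232500 matches glycine-rich cell wall structural protein 2. It had 85.4, 35.5 and 84.5 CPM in SQR at 35 d and 60.7, 63.4, 69.2 and 45.5 CPM in SQR at 28 d. In SRN39 it had 0.936, 0.444, 0.848 and 1.21 CPM at 35 d and 1.27, 0.441, 1.17 and 0.653 CPM at 28 d. At 1.37% of SQR, this was the lowest SRN39 share of the 12 genes. Sobic.001G179400 matches XTH9, a xyloglucan endotransglucosylase/hydrolase, an enzyme that cuts and rejoins xyloglucan chains in the wall. SQR libraries had 7.85, 8.42 and 16.6 CPM at 35 d and 14.2, 13.1, 9.07 and 13.3 CPM at 28 d. SRN39 libraries had 1.35, 0.8, 1.39 and 0.966 CPM at 35 d and 1.54, 1.85, 2.25 and 2.69 CPM at 28 d. SRN39 stood at 13.6% of SQR, and within SRN39 the libraries of the 2 ages did not overlap.

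Transport and metal-binding genes were both present. Sobic.001G208500 matches beta-TIP, an aquaporin that lets water cross the vacuolar membrane. Its SQR libraries had 2.9, 2.61 and 5.05 CPM at 35 d and 6.7, 8.65, 25.4 and 34.7 CPM at 28 d. Its SRN39 libraries had 0.312, 0.356, 0.308 and 0.242 CPM at 35 d and 0.0909, 0.265, 0.391 and 0.163 CPM at 28 d, or 1 to 4 counts each. SRN39 stood at 2.16% of SQR, with the SQR libraries far apart. Sobic.001G316400 encodes a protein with a heavy metal-associated domain, which binds metal ions. SQR libraries had 106, 43.5 and 81.3 CPM at 35 d and 74.5, 97.6, 101 and 57.5 CPM at 28 d. SRN39 libraries had 12.5, 12.7, 11.8 and 16.3 CPM at 35 d and 5.09, 5.91, 9.78 and 6.36 CPM at 28 d. SRN39 stood at 12.5% of SQR. The SRN39 libraries of the 2 ages did not overlap, but the log2 fold change of 0.71 (SE 0.27) missed the threshold by edgeR (adjusted p = 0.057). With libraries scaled by their totals alone it was 0.98 and passed (edgeR, adjusted p = 0.012).

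Among metabolic enzymes, Sobic.001G397400 matches acyl-activating enzyme 7 (ACN1), which in Arabidopsis attaches coenzyme A to acetate. SQR libraries had 35.9, 41.2 and 41.7 CPM at 35 d and 55, 28.8, 34.8 and 46.9 CPM at 28 d. SRN39 libraries had 3.95, 2.49, 3.16 and 4.19 CPM at 35 d and 5.45, 4.15, 5.58 and 3.1 CPM at 28 d, so SRN39 stood at 9.87% of SQR. Sobic.001G310300 matches glutathione S-transferase F11, of a family that joins glutathione to small molecules. It had 19.2, 29.4 and 20.4 CPM in SQR at 35 d and 25.3, 36, 31.3 and 35.2 CPM in SQR at 28 d. In SRN39 it had 7.49, 5.51, 6.25 and 5.47 CPM at 35 d and 3.82, 4.76, 3.52 and 4.32 CPM at 28 d. At 18.3% of SQR this was the highest SRN39 share of the 12 genes. Sobic.001G484000, an alpha/beta-fold hydrolase of unstated substrate, lay between 20.8 and 37.5 CPM in SQR and between 0.571 and 2.4 CPM in SRN39, which is 6.45% of SQR.

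**Figure D3:**
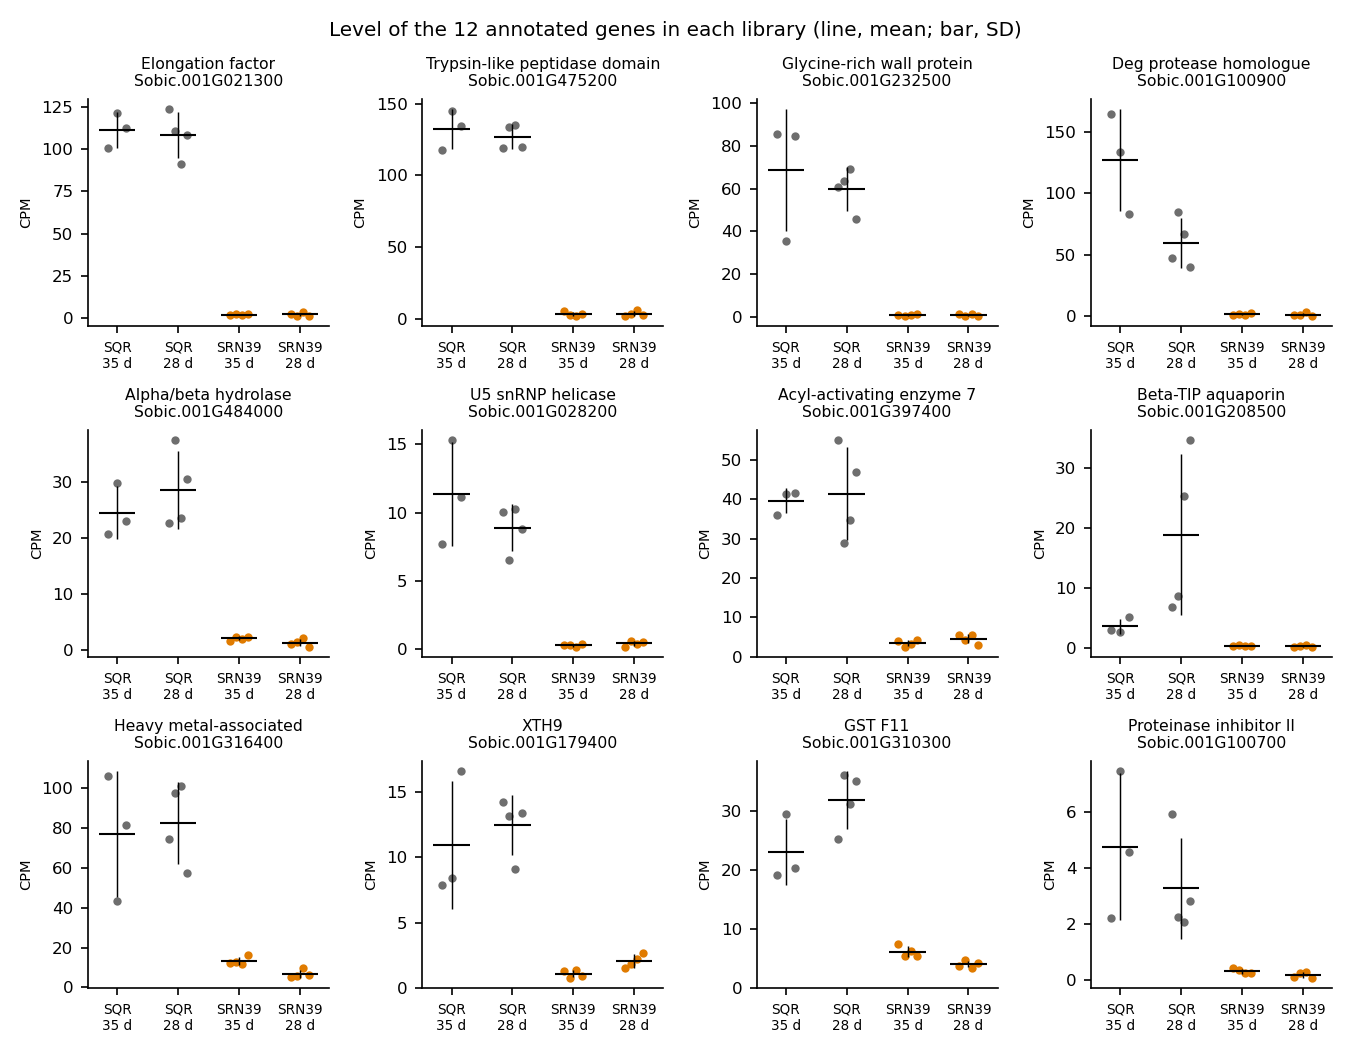
CPM of the 12 annotated genes in each library, with SQR in gray and SRN39 in orange. The line is the mean and the bar the SD of the group (n = 3 for SQR at 35 d, n = 4 for the other groups). Every SQR library lies above every SRN39 library, as the choice requires, and beta-TIP is the gene whose SQR libraries spread most in proportion, between 2.61 and 34.7 CPM.

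Age was not used to choose the genes, although the rule favours genes that vary little within a genotype. Age differences were tested with edgeR's quasi-likelihood test over all 18473 genes, with TMM scaling. A gene is named as called where its Benjamini-Hochberg adjusted p was below 0.05. Folds of this test rest on TMM-scaled libraries and the CPM given above on library totals.

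In SQR, 3 of the 150 genes were lower at 35 d than at 28 d, against a background of 1.53% of all genes tested, and 0 were higher, against 1.07%. At an unadjusted p under 0.05 there were 22 genes in both directions (14.7%, against 23.1% of all genes). DESeq2 called 2 higher and 6 lower (5.33%, against 7.82% of the genes to which it gave an adjusted p), and limma-voom called 2 higher and 2 lower (2.67%, against 1.82% of all genes). The median log2 fold change was -0.03 over the 150 genes and 0.06 over all genes. The shares called, 2% lower and 0% higher, are near the background. Beta-TIP (Sobic.001G208500) was the only called gene with a name. It averaged 3.52 ± 1.33 CPM at 35 d (SD, n = 3) and 18.9 ± 13.5 CPM at 28 d (SD, n = 4), and every 35 d library was below every 28 d library. The log2 fold change was -2.59 (SE 0.5, edgeR adjusted p = 0.016), and the call was lost without replicate 4 at 28 d (edgeR adjusted p = 0.061) or replicate 2 at 35 d (edgeR adjusted p = 0.07). For beta-TIP the age difference in SQR minus that in SRN39, -2.75 (SE 1.02), did not pass (edgeR adjusted p = 0.11). The other called genes, which have no description, averaged 23.7 CPM at 35 d and 77.7 CPM at 28 d in one case, and 326 CPM at 35 d and 522 CPM at 28 d in the other. Without replicate 4 at 28 d or replicate 2 at 35 d of SQR the count of 3 fell to 0, and the calls over all genes were 0.337% and 0.372% in place of 2.6%. It was 5 without replicate 2 at 28 d and 9 without replicate 3 at 35 d, where 4.42% and 11.3% of all genes were called, so it moved with the calls over all genes.

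In SRN39, 3 of the 150 genes were higher at 35 d, against a background of 15.7%, and 11 were lower, against 15.2%. Many of the genes gave few counts in SRN39, where the test could see little of them. Of the 64 genes that passed the filter on SRN39 libraries alone, 3 were higher (4.69%) and 8 lower (12.5%). Of the other 86, none was higher and 3 were lower. The median log2 fold change was -0.15 over the 150 genes and 0.04 over all genes. The split by direction depended on the scaling: with library totals in place of TMM, which moved the median of all genes up by 0.27, 9 genes were higher and 5 lower, as 25.3% of all genes were higher and 8.57% lower. Without replicate 4 of SRN39 at 35 d the count was 8 in place of 14, with 22.1% of all genes called in place of 30.9%.

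XTH9 (Sobic.001G179400) was the named gene among those called in SRN39. It averaged 1.13 ± 0.29 CPM at 35 d and 2.08 ± 0.5 CPM at 28 d (SD, n = 4 each). The corresponding log2 fold change was -1.15 (SE 0.35, edgeR adjusted p = 0.021). The call was lost without replicate 4 at 28 d (edgeR adjusted p = 0.069) and without replicate 2 (0.063) or 4 (0.066) at 35 d. In SQR its log2 fold change was -0.34 (SE 0.31, edgeR adjusted p = 0.52), and the difference between the genotypes, 0.81 (SE 0.46), did not pass (edgeR adjusted p = 0.31).

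Most of the called genes have no description. One called gene on chromosome 3 had 6 counts in all over the SRN39 libraries, so nothing is read from its SRN39 age difference or its interaction. The gene with the smallest adjusted p was also on chromosome 3 and averaged 12.6 ± 1.51 CPM at 35 d and 4.52 ± 1.92 CPM at 28 d in SRN39 (SD, n = 4 each), while its SQR means were 57.6 CPM at 35 d and 58.5 CPM at 28 d. A gene on chromosome 10 averaged 13.7 ± 1.96 CPM at 35 d and 25.5 ± 6.69 CPM at 28 d in SRN39 (SD, n = 4 each), with SQR means of 195 CPM at 35 d and 142 CPM at 28 d. The genotype-by-age interaction, the age difference in SQR minus that in SRN39, was called for both of these genes. It was -1.46 on the log2 scale for that on chromosome 3 (SE 0.3, edgeR adjusted p = 0.0092) and 1.39 for that on chromosome 10 (SE 0.32, edgeR adjusted p = 0.017). For a gene on chromosome 7 the interaction was more negative, at -1.73 (SE 0.36, edgeR adjusted p = 0.0093). That gene averaged 6.42 CPM at 35 d and 2.01 CPM at 28 d in SRN39, and 32.2 and 34.3 CPM in SQR.

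Over the whole list the interaction was called for 6 genes, of which 2 were positive (background 3.66%) and 4 negative (background 3.68%). Of the 64 genes that passed the filter on SRN39 libraries alone, 1 was positive (1.56%) and 4 were negative (6.25%), and of the other 86, in which SRN39 gave few counts, 1 was positive. No direction relative to the background is read from these counts, since it depends on which genes are counted. For GST F11 (Sobic.001G310300) the interaction was -1.01 (SE 0.28, edgeR adjusted p = 0.037). Its mean was 23 ± 5.59 CPM at 35 d (SD, n = 3) and 31.9 ± 4.91 CPM at 28 d (SD, n = 4) in SQR, and 6.18 ± 0.94 CPM at 35 d and 4.11 ± 0.55 CPM at 28 d in SRN39 (SD, n = 4 each). Neither age difference alone passed: -0.70 in SQR (edgeR adjusted p = 0.061) and 0.31 in SRN39 (edgeR adjusted p = 0.24). With library totals in place of TMM the SRN39 difference was 0.58 and passed (edgeR adjusted p = 0.037). The call rests on a narrow margin, since it was lost in 10 of 15 fits that left out 1 library each (edgeR adjusted p up to 0.073). Without replicate 4 of SRN39 at 28 d, or replicate 1 or 3 of SRN39 at 35 d, the count of 6 was 3, with 4.71%, 6.32% and 4.76% of all genes called in place of 7.34%.

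**Figure D4:**
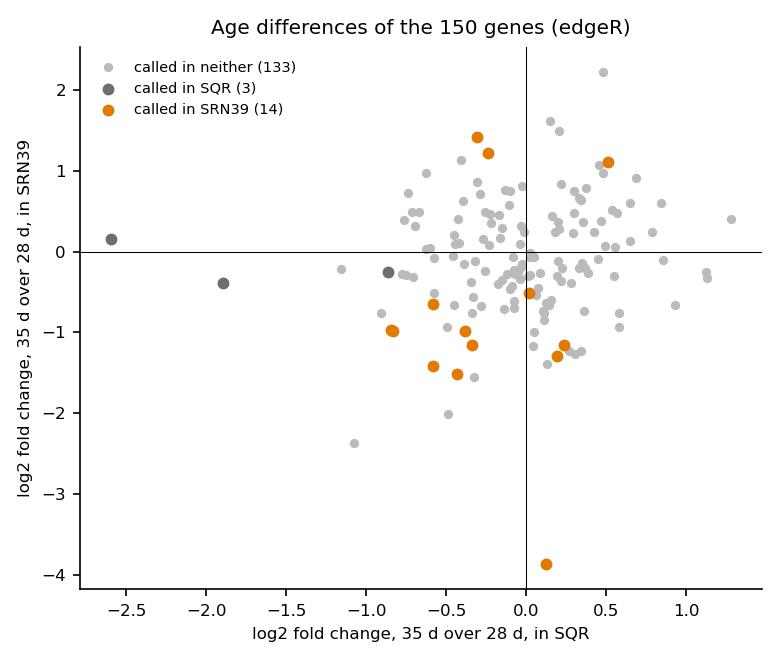
Log2 fold change of 35 d over 28 d in SRN39 against that in SQR for the 150 genes (edgeR). Called genes are 3 in SQR (gray) and 14 in SRN39 (orange), none is called in both, and 133 are called in neither (light gray).

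Called between genotypes were 150 of the 150 genes as higher in SQR at 35 d (background 19.4%) and at 28 d (background 8.74%), with median log2 fold changes of 4.88 at 35 d and 4.67 at 28 d, which the choice fixes. Choosing on 1 age and reading the other gives levels in libraries that the choice did not use. The edgeR calls at the other age still rest on a spread estimated over all 15 libraries, those used to choose included. Of the 150 genes with the largest gap in the 28 d libraries alone, 144 were called higher in SQR at 35 d and 2 lower, and the libraries did not overlap for 143 (95.3%, background 18.7%). Of those chosen on the 35 d libraries alone, 130 were called higher in SQR at 28 d, and 127 did not overlap (84.7%, background 12.4%). The median log2 fold change at the age not used was 4.3 for the first list and 4.05 for the second. These lists held 118 and 104 of the 150 genes. The plants of both ages were of the same 2 varieties, so the readings repeat the difference between these varieties only.

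Apart from the IDs left out on chromosome 5, position on the chromosomes is a property that the choice did not use. Chromosome 8 held 18 of the genes (12% of the list, against 5.15% of genes tested), which is 1.89 per 100 genes tested there. Chromosome 10 held 19 (12.7%, against 8.3%), or 1.24 per 100. The lowest densities were 0.33 per 100 on chromosome 9 (5 genes) and 0.42 per 100 on chromosome 6 (7 genes). Over all chromosomes, 150 of 18473 genes tested were on the list. On chromosome 5, 10 genes gave 1.07 per 100. The genes tested there include left-out IDs, which could not be chosen, and 13 of these IDs would otherwise have been listed. Its density is therefore not compared with the others. The order of gene IDs follows the order along each BTx623 chromosome. In it, 17 of the 150 genes stood directly beside another, in 5 pairs, a run of 3 and a run of 4, and 37 genes had another within 10 rows. No other set of genes was counted this way, so these counts are not read as clustering.

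The run of 4, Sobic.008G099232, Sobic.008G099300, Sobic.008G099500 and Sobic.008G099600 on chromosome 8, has no description. Sobic.008G099500, the one with the largest gap (2.14), had 10.8, 11.1 and 6.14 CPM in SQR at 35 d and 6.59, 4.83, 4.85 and 6.44 CPM in SQR at 28 d. In SRN39 it had 0.104, 0.0889, 0.154 and 0.322 CPM at 35 d and 0, 0.176, 0.0978 and 0 CPM at 28 d. The means of all 4 genes lay between 1.98 and 7.26 CPM in SQR and between 0.0771 and 0.157 CPM in SRN39. The nearest tested gene on one side averaged 16.8 CPM in SQR and 7.84 CPM in SRN39, and was called higher in SQR at 35 d (log2 fold change 1.42, edgeR adjusted p = 0.0018) but not at 28 d (0.78, edgeR adjusted p = 0.065). The nearest on the other side averaged 38.3 CPM in SQR and 45.6 CPM in SRN39 and was called at neither age. Counts near 0 in SRN39 thus stretched over 4 neighbouring genes, with 7.84 CPM or more on average in SRN39 at the tested genes on either side.

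The run of 3 on chromosome 1 ends in Sobic.001G475200, the gene with the trypsin-like peptidase domain. The other genes of this run have no role assigned and averaged 8.96 and 3.24 CPM in SQR, against 0.267 and 0.121 CPM in SRN39. The tested gene before the run averaged 22.3 CPM in SQR and 24.1 CPM in SRN39, and the one after it 3.79 CPM in SQR and 4.29 CPM in SRN39, and neither was called at either age. A pair on the same chromosome joined the glycine-rich cell wall protein gene Sobic.001G232500 to the gene before it in the table.

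**Figure D5:**
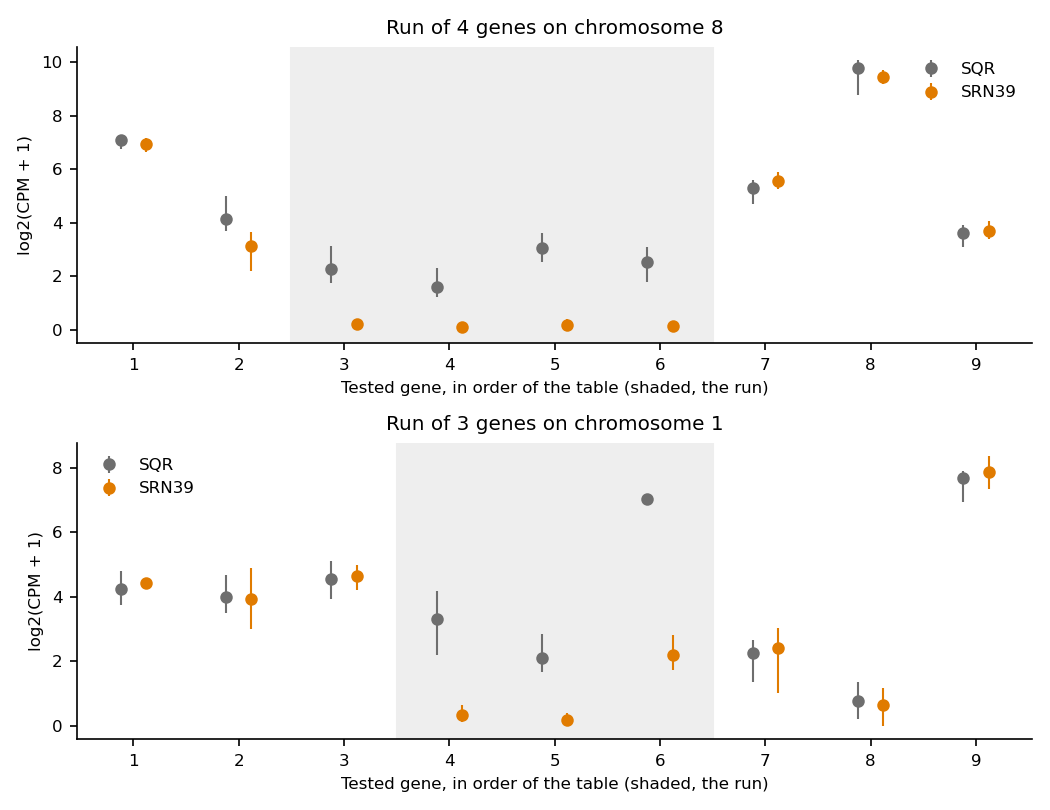
Level, log2(CPM + 1), of the genes in the run of 4 on chromosome 8 and the run of 3 on chromosome 1 (shaded) and of the tested genes on either side, in table order. Points are log2 of the mean CPM + 1 and bars the lowest and highest library, with SQR in gray (7 libraries) and SRN39 in orange (8 libraries). The ranges of the genotypes are apart inside the runs and overlap at genes on either side, except for the first gene left of the chromosome 8 run, where they stand just apart.

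Over all 150 genes, 276 genes that were not on the list stood next to a listed gene, and 138 of them were tested. At 35 d, 43 neighbours (31.2%) were called higher in SQR, against a background of 19.4%, and 28 (20.3%) lower, against 16.3%. At 28 d, 23 neighbours (16.7%) were higher, against 8.74%, and 17 (12.3%) were lower, against 8.65%. With 2 genes on each side taken as neighbours, 28.4% were higher and 15.5% lower at 35 d, and 14.4% were higher and 8.99% lower at 28 d. The share called higher in SQR was thus above that of all genes under both choices. The share called lower was also above it for the genes directly beside, and near or under it with 2 genes on each side. Neighbours without overlap between the genotypes at both ages were 14 with SQR higher (10.1%, background 3.98%) and 11 with SRN39 higher (7.97%, background 4.31%).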

How the data were processed

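Per the labels and the study's methods, the authors pooled the technical replicates of their 3′ mRNA-Seq libraries, trimmed the reads, mapped them with STAR to BTx623 and deposited raw counts per gene. The sources used here do not give the version of STAR or of the annotation. Of the table's columns, 15 were matched to samples. Another, named as replicate 4 of SQR at 35 d, matched no sample description and was not used, which leaves that group with 3 libraries although the study describes 4 replicates. The counts were used as deposited, with R 4.3.3, edgeR 4.0.16, limma 3.58.1 and DESeq2 1.42.0. One edgeR model of the 4 groups (TMM, more than 1 CPM in at least 3 libraries) gave all contrasts, two-sided. Standard errors are the log2 fold change over the square root of F. Named genes are those with a role in the study table, LGS1 and the longest run, with at most 4 IDs lacking a description. The 150 genes, lists and tests were chosen with earlier results of these data known. No ID matched the RefSeq gene list, and no sequences are shown. The alternatives tried were limma-voom, DESeq2, other scalings, filters and pseudocounts, medians in place of extremes, thinning to the smallest library, 100 or 300 genes, 2 neighbours on each side, a replicate block, and leaving out each library.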

Additional observations from a re-analysis of the deposited data

Results flagged for a closer look

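The summed level of the 150 genes was 580 CPM in replicate 3 of SRN39 at 28 d, against 401 to 430 CPM in the other SRN39 libraries of that age. The gap to the nearest library was 0.836 of the range of the group, past Dixon's limit for 4 samples. Of 60 groups examined in this way 1 was past the limit, where chance alone would give about 1 in 20. Without this library 141 of the 150 genes were chosen again, and 18 in place of 14 were called between ages in SRN39. Over all genes, 31% in place of 30.9% were called between ages in SRN39. Of the genes chosen at 28 d, 133 in place of 144 were called higher in SQR at 35 d.

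The age effect on GST F11 (Sobic.001G310300) passed the test of a difference between the genotypes, with a log2 fold change of -0.697 in SQR, 0.312 in SRN39 and a difference of -1.01 (edgeR interaction, adjusted p = 0.037). The call was lost with a replicate block (edgeR adjusted p = 0.081) and in 10 of 15 fits without 1 library.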

How the results depend on the processing

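The number of the 150 genes called between ages in SQR was 3, and it was 8 with DESeq2, 5 with library totals without TMM, and 0 to 9 when 1 library was left out. Over all genes 2.6% were called, and 7.82% with DESeq2, 3.84% with library totals and 0.337 to 11.3% without 1 library. The count in SRN39 was 14 (30.9% of all genes called), and 8 to 18 with 1 library left out (22.1 to 36.6% of all genes). The interaction count was 6, and it was 3 with limma-voom and quantile normalization (6.96% of all genes, against 7.34%). With 1 library left out it was 3 to 8, where 4.54 to 10.7% of all genes were called. In fits without 1 library, 0 of the 3 calls in SQR, 6 of the 14 in SRN39 and 3 of the 6 for the interaction were made each time. Without a filter on low counts, 222 neighbours were tested. Of these, 21.6% were called higher in SQR and 13.5% lower at 35 d, and 12.6% higher and 7.21% lower at 28 d. Of the 28088 genes in that fit, 6719 were called in either direction at 35 d and 3330 at 28 d. Its background by direction was not computed, so these shares are not compared with the filtered background. The cause of these changes was not tested. Replicate numbers did not pair the libraries (same-numbered correlations -0.22 to 0.17 over 14 pairs, 1 of them a best match). With a replicate block 2 of the 150 genes were called in SQR (1.33%, against 0.558% of all genes). In SRN39 13 were called (8.67%, against 27.2%), and 5 by the interaction (3.33%, against 3.85%). The interaction of GST F11 was then -1.03 (edgeR adjusted p = 0.081). The choice of genes itself shared 140 genes under TMM scaling, 130 and 121 with pseudocounts of 0.25 and 4, 109 with medians, 139 after thinning and at least 139 without 1 library. Taking 100 or 300 genes, 9% and 14% were called between ages in SRN39, against 9.33% of the 150 and 30.9% of all genes tested. Many of the genes gave few counts in SRN39, and the rule favours genes that vary little within a genotype. The part of either in these shares was not tested.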
